A study of Bos taurus with 11 samples.

Results

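The genes described here encode beta subunits of the sodium pump (ATP1B1, ATP1B2 and ATP1B3) and FXYD proteins (FXYD1, FXYD2, FXYD3, FXYD5 and FXYD6), measured in the endometrium, the lining of the uterus, of cows. They were chosen by name, with their differences between the groups of cows already known. Every probe that the array's annotation gives one of these 8 symbols was taken, and probe A_73_112171 was added to FXYD2 by the rule of choice. That gave 18 of the 43653 non-control probes of the array, for 7 of the 8 genes among 15511 genes named on it, and 16 of the 18 were bright enough to be tested among 31877 probes. No probe carries the symbol FXYD5, but the annotation describes 2 probes as FXYD5, and their values are given apart from the others.

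Endometrial biopsies were taken on day 7 of the oestrous cycle from 5 subfertile cows and 6 fertile cows, and each cow's RNA was hybridised to 1 Agilent 1-colour array. The subfertile cows had not conceived after 3 consecutive embryo transfers or inseminations, although their genital tracts showed no detectable abnormality and their cycles appeared normal. The fertile cows had conceived within 3 attempts before the biopsy and again at the first embryo transfer after it. No treatment separated the groups, and age, parity and breed are not given in the sources used here. A whole biopsy mixes cell types, so fewer cells of a type and less RNA per cell cannot be told apart in these values.

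The sodium pump (Na,K-ATPase) uses ATP to move sodium out of a cell and potassium in, and the sodium gradient it builds drives the transport of other ions, nutrients and water across an epithelium. Its catalytic alpha subunit needs a beta subunit to fold, leave the endoplasmic reticulum and reach the membrane. FXYD proteins are small single-span membrane proteins, named after a short shared motif, that bind the assembled pump and change its affinity for ions or its rate. In the uterus, the epithelium sets the volume and ion content of the fluid in which the early embryo lies, and the pump supplies the gradient for that transport.

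The probes are 60-base DNA oligonucleotides. For each of 6 genes, 1 probe is shown that the annotation maps over more than 60 bases of the HGSC Btau_3.1 genome, so that its match is split by a gap, as it would be over an intron. No exon annotation of that build was used here, and the probes are shown to identify what was measured. They are written 5′ to 3′ in lower case, and the coordinates and strand are those of the deposited files. Capitals mark the 15 bases of the FXYD3 probe that encode the motif after which the FXYD family is named, found by translating the forward frames. The frames of the other 5 printed probes did not hold it.
ATP1B1, probe A_73_P154497, chr16:34205700-34206889, plus strand: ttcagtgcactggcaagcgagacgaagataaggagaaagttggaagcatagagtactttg
ATP1B2, probe A_73_120656, chr19:27871855-27872021, plus strand: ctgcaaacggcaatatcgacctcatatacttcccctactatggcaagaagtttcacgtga
ATP1B3, probe A_73_P279154, chr1:129202358-129206505, minus strand: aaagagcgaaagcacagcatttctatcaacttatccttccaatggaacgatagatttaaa
FXYD1, probe A_73_P046391, chr18:45290390-45290940, plus strand: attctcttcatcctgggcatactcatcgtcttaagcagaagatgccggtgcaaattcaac
FXYD2, probe A_73_112171, chr15:26912316-26913126, minus strand: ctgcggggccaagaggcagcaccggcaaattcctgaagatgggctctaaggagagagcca
FXYD3, probe A_73_P303326, chr18:45273204-45273932, plus strand: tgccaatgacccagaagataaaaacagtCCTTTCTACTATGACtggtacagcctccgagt
FXYD1, FXYD3 and the probes described as FXYD5 lie on chromosome 18, and FXYD2 and FXYD6 lie near each other on chromosome 15. The annotated probe positions of FXYD2 end at base 26913126 and those of FXYD6 begin at base 26929596, both on the minus strand.

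All levels below are log2 processed signals minus the 75th percentile of the same array, so 0 is the level of a probe brighter than 75% of probes. A difference is the mean of subfertile cows minus the mean of fertile cows, with its standard error from a limma fit over all 31877 probes. The 11 arrays differed in brightness by group: the median processed signal was 54.3 to 92.7 on subfertile arrays and 161 to 452 on fertile arrays. Between 64.4% and 74.1% of probes were well above background in subfertile cows, and between 72.0% and 77.4% in fertile cows. Slide and scan day were known for 10 arrays, and 0 slides and 0 days held both groups: subfertile arrays lay on 3 slides of 1 day, and the known fertile arrays on 3 slides of 3 days. No comparison of the groups within a slide or day was therefore possible, and each was entered as a random block among the alternatives. Over all tested probes, 14.8% were higher and 7.38% lower in subfertile cows at an adjusted p below 0.05, and the median difference was 0.07. After quantile normalization, 3243 probes were higher and 3146 lower.

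In subfertile cows ATP1B3 was lower at each of its 4 probes, while FXYD2 was higher at both of its probes and FXYD3 at the brighter 2 of its 4 tested probes. At ATP1B1, ATP1B2 and FXYD1 the group means differed by less than the SD between cows, and the differences of FXYD6 were not past the threshold. Of the 16 tested probes, 8 were past an adjusted p of 0.05 in the limma fit, 4 of them higher (both FXYD2 probes and 2 FXYD3 probes) and 4 lower (ATP1B3), where 22.2% of all tested probes were called in either direction. At 5 of the 16 probes no subfertile cow overlapped a fertile cow (1 higher and 4 lower), beside 13.5% of all tested probes (9.65% higher and 3.88% lower). The genes were chosen with this contrast in view, so these counts are a description and nothing is read from them. FXYD2 probe A_73_112171 entered the test with 4 subfertile arrays and 1 fertile array well above background, the minimum of 5. Among the 12 member probes well above background on all 11 arrays, 7 were called, 3 higher and 4 lower. With slide as a random block 6 of the 16 were called, without FXYD3. Entering scan day instead left 3, all ATP1B3, so that neither FXYD2 nor FXYD3 was past the threshold. No FXYD3 probe was called with a block for replicate number, or without fertile cow 3 or 5 or subfertile cow 5. The call of FXYD3 probe A_73_P038081 was also lost after quantile normalization, median centring or removal of the brightness trend. It was lost too without any 1 of the 6 fertile cows, and without subfertile cow 1 or 5.

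**Figure D1:**
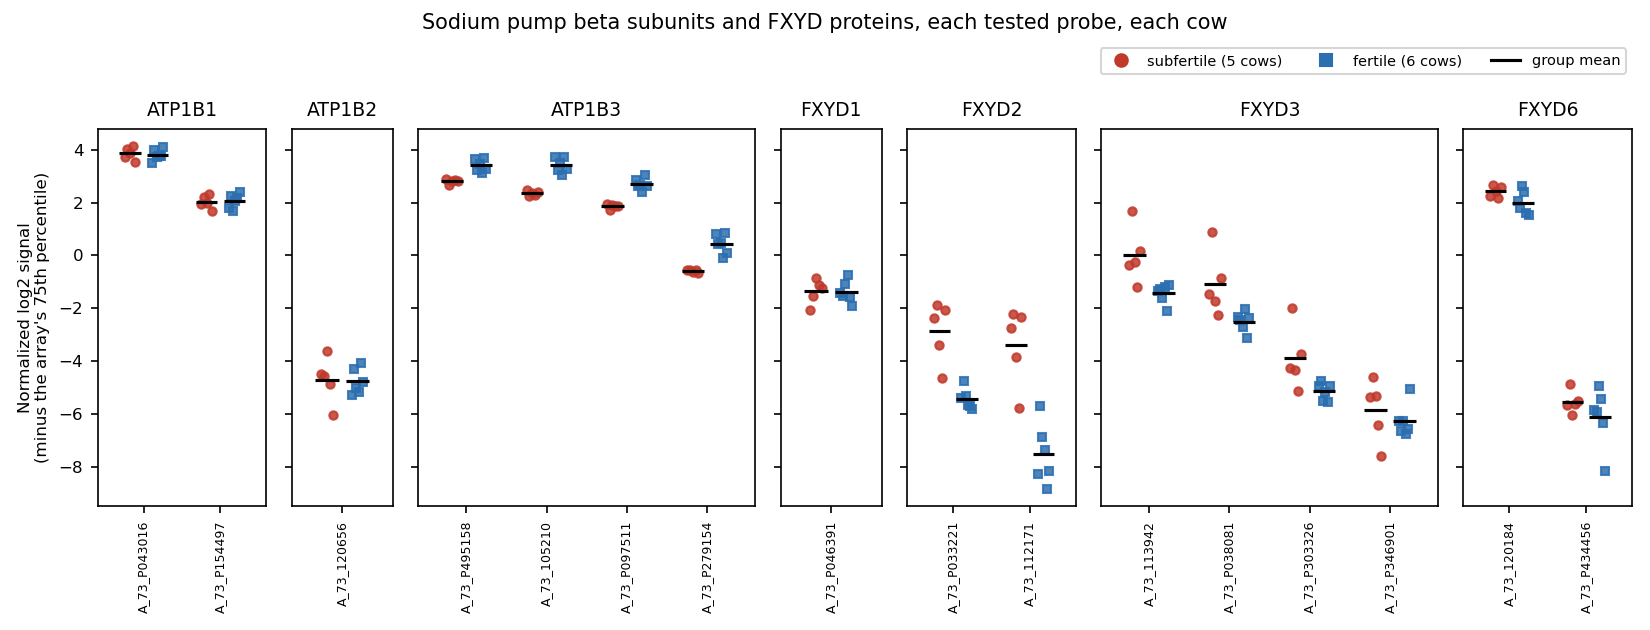
Normalized log2 signal (log2 processed signal minus the array's 75th percentile, vertical axis) of each of the 16 tested probes (horizontal axis, grouped by gene) in each cow. Circles are the 5 subfertile cows, squares the 6 fertile cows and black lines group means. The ATP1B3 circles lie below all squares at each of the 4 probes, and the circles of the FXYD2 probe A_73_P033221 lie above all squares.

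ATP1B3 encodes the beta-3 subunit, which is widely expressed and pairs with the alpha subunit in many tissues. Its probe A_73_105210 read 2.47, 2.25, 2.38, 2.29 and 2.41 in subfertile cows 1 to 5, against 3.74, 3.25, 3.52, 3.07, 3.71 and 3.29 in fertile cows 1 to 6. The highest subfertile cow lay 0.59 below the lowest fertile cow, and the means were 2.36 ± 0.09 in subfertile cows (SD, n = 5) and 3.43 ± 0.27 in fertile cows (SD, n = 6). The difference was -1.07 ± 0.13 (SE), a 2.10-fold lower signal in subfertile cows.

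The ATP1B3 probe printed above, A_73_P279154, read -0.53, -0.55, -0.61, -0.54 and -0.65 in subfertile cows, against 0.80, 0.43, 0.46, -0.10, 0.87 and 0.11 in fertile cows. Its difference was -1.0 ± 0.17, or 2.01-fold. Probe A_73_P097511 read 1.74 to 1.94 in subfertile cows and 2.42 to 3.04 in fertile cows, with a difference of -0.85 ± 0.12. Probe A_73_P495158, the brightest, read 2.68 to 2.90 in subfertile cows and 3.13 to 3.70 in fertile cows, with a difference of -0.59 ± 0.12. The last 2 probes share 33 bases of genome, with 2 mismatches between them, and so are not separate measurements of the transcript.

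The subfertile cows lay close together at ATP1B3. Their SD was 0.05 to 0.09 over the 4 probes, against 0.22 to 0.38 among the fertile cows. Fertile cows 4 and 6 were the nearest to the subfertile cows at probe A_73_P279154, and fertile cows 1 and 5 the farthest. Among fertile cows the 4 probes varied together, with Pearson correlations from 0.91 to 0.99 between probes. Among subfertile cows probe A_73_P279154 did not follow the others, with correlations from -0.25 to -0.01. These 5 cows spanned only -0.65 to -0.53 at this probe, so the correlations say little about how the probes behave.

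ATP1B1 encodes the beta-1 subunit, the main beta subunit of transporting epithelia, where it also takes part in cell adhesion. Its probe A_73_P043016 read 3.75, 4.04, 3.88, 4.16 and 3.55 in subfertile cows, against 3.49, 4.0, 3.72, 3.76, 3.77 and 4.11 in fertile cows. The groups overlapped over nearly their whole range, with means of 3.87 ± 0.24 in subfertile cows and 3.81 ± 0.22 in fertile cows and a difference of 0.07 ± 0.14. The printed probe, A_73_P154497, read 1.70 to 2.34 in subfertile cows and 1.68 to 2.40 in fertile cows, with a difference of -0.04 ± 0.16. The sign of these differences turned under 5 and 3 of 23 other settings. Across the 11 arrays the deviations of both probes from their group means had a Pearson correlation of 0.89, so they ranked the cows in a similar order within groups.

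ATP1B2 encodes the beta-2 subunit, known in brain as an adhesion molecule on glia. Its single probe was dim and read -4.49, -4.56, -3.62, -4.87 and -6.05 in subfertile cows, against -5.28, -4.29, -5.0, -5.17, -4.06 and -4.80 in fertile cows. It exceeded background clearly on 4 of 5 subfertile and 6 of 6 fertile arrays. Subfertile cow 3 was the highest and subfertile cow 5 the lowest of all 11, and the difference was 0.05 ± 0.37, with a sign that turned under 8 of 22 settings. The glial and neuronal markers on the array had a summed level of 12.7 to 24.2 in subfertile cows and 7.45 to 23.2 in fertile cows, in multiples of the 75th-percentile signal, and their part in this result was not tested.

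FXYD2 encodes the gamma subunit of the pump, best known in kidney, where it lowers the pump's affinity for sodium. Probe A_73_P033221 read -2.36, -1.87, -3.39, -4.64 and -2.07 in subfertile cows, against -5.42, -4.75, -5.30, -5.68, -5.70 and -5.82 in fertile cows. All 5 subfertile cows lay above all 6 fertile cows, though subfertile cow 4 exceeded fertile cow 2 by only 0.11. The means were -2.87 ± 1.15 in subfertile cows and -5.45 ± 0.39 in fertile cows, a difference of 2.58 ± 0.44 or 5.97-fold, and the probe was well above background on every array.

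The printed FXYD2 probe, A_73_112171, read -2.75, -2.21, -3.85, -5.79 and -2.33 in subfertile cows, against -8.29, -5.69, -6.87, -7.36, -8.84 and -8.15 in fertile cows. Subfertile cow 4 fell within the fertile range and the other 4 lay above it. The difference was 4.15 ± 0.70, but the probe stood well above background on 4 of 5 arrays of subfertile cows and only 1 of 6 of fertile cows. Most fertile values are therefore readings at the background. The probe met the filter of 5 arrays mainly through the group where it was higher. With normexp background correction the difference was 2.47. The deviations of both FXYD2 probes from their group means correlated at 0.90 over the 11 arrays, and within subfertile cows at 0.996.

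At A_73_P033221 the groups were apart after scaling and not in raw signal. Before scaling, its processed signal was 27.5 to 166 on subfertile arrays and 38.8 to 161 on fertile arrays, while the 75th-percentile signal was 513 to 833 on subfertile arrays and 1547 to 4348 on fertile arrays.

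FXYD3, also called Mat-8, encodes a pump regulator expressed in several epithelia. Probe A_73_113942 read -0.37, 1.67, -0.25, -1.21 and 0.18 in subfertile cows, against -1.33, -1.28, -1.63, -1.20, -2.09 and -1.11 in fertile cows. Subfertile cows 1, 2, 3 and 5 lay above all fertile cows, subfertile cow 4 lay among them, and subfertile cow 2 stood highest. The means were 0.01 ± 1.06 in subfertile cows and -1.44 ± 0.36 in fertile cows, a difference of 1.44 ± 0.41 or 2.72-fold. As at FXYD2, the difference depends on scaling. Before it, the processed signal of this probe was 298 to 1943 on subfertile arrays and 501 to 1795 on fertile arrays.

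Subfertile cow 2 was again the highest and subfertile cow 4 the lowest of their group at the printed FXYD3 probe over the family motif, A_73_P303326. It read -4.26, -1.98, -4.32, -5.13 and -3.71 in subfertile cows, against -4.96, -4.77, -5.49, -5.16, -5.54 and -4.94 in fertile cows. Its difference, 1.26 ± 0.44, was not past the threshold. Probe A_73_P038081 shares 40 bases with A_73_113942 without a mismatch, and its difference was 1.42 ± 0.46. Probe A_73_P346901, well above background on 3 of 5 subfertile and 5 of 6 fertile arrays, gave 0.41 ± 0.49 and followed the others loosely, with correlations of their deviations from 0.33 to 0.42, where the other 3 probes correlated at 0.96 to 0.98. Another probe, A_73_P067361, was well above background on 0 of 5 subfertile and 2 of 6 fertile arrays and was not tested.

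FXYD1 encodes phospholemman, the pump regulator of heart and skeletal muscle. The printed probe read -2.05, -1.54, -0.86, -1.12 and -1.24 in subfertile cows, against -1.42, -1.54, -1.08, -0.75, -1.59 and -1.93 in fertile cows. The groups overlapped, with means of -1.36 ± 0.46 in subfertile cows and -1.38 ± 0.41 in fertile cows, and the sign of the difference, 0.02 ± 0.24, turned under 10 of 23 settings. The second probe with this symbol, A_73_P127581, maps to the opposite strand. It was well above background on 0 of 5 subfertile and 1 of 6 fertile arrays, where fertile cow 1 read -3.07 and all other cows -6.92 or lower, and it was not tested.

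FXYD6, or phosphohippolin, was first described in brain. Probe A_73_120184 read 2.27, 2.66, 2.43, 2.16 and 2.61 in subfertile cows, against 2.06, 1.79, 2.62, 2.39, 1.61 and 1.55 in fertile cows. Fertile cows 3 and 4 read as high as the subfertile cows and the other 4 fertile cows lay below them all, and the difference was 0.42 ± 0.20. The dim probe A_73_P434456, well above background on 3 of 5 subfertile and 5 of 6 fertile arrays, gave 0.56 ± 0.47.

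FXYD5, or dysadherin, differs from the other family members in a long extracellular part and is known for weakening adhesion between epithelial cells. Of the 2 probes described as FXYD5, A_73_120837 read 2.62, 2.96, 2.77, 2.94 and 2.94 in subfertile cows, against 2.43, 2.56, 2.52, 2.60, 2.62 and 2.01 in fertile cows. Subfertile cow 1 and fertile cow 5 had nearly the same level, the other 4 subfertile cows lay above all fertile cows, and the difference was 0.39 ± 0.13. The other probe, A_73_P127336, gave 0.04 ± 0.22 with overlapping groups.

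**Figure D2:**
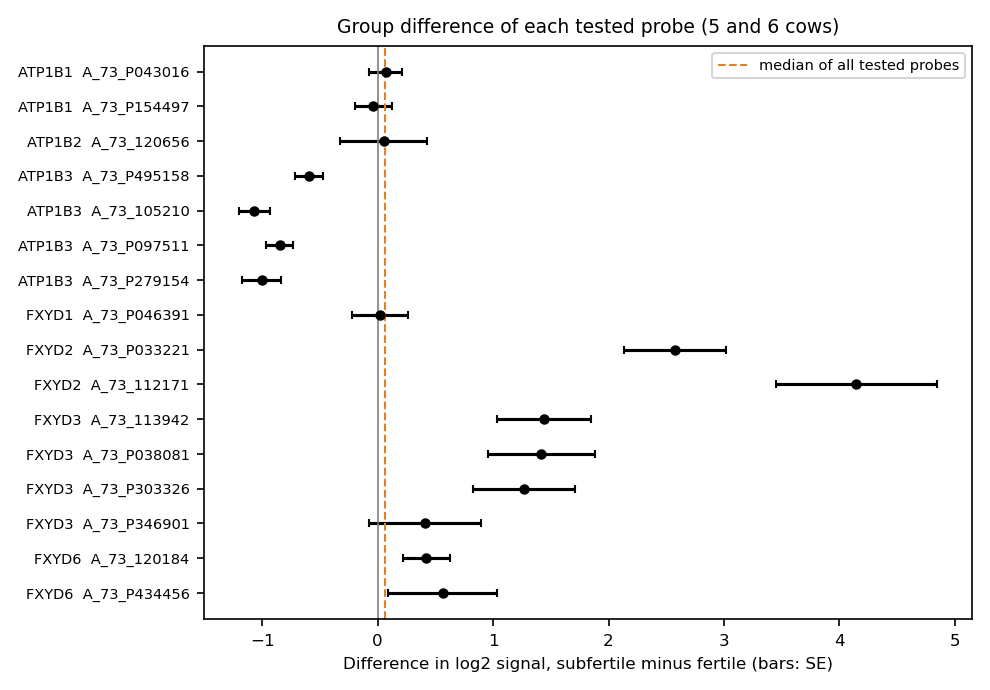
Difference in log2 signal, subfertile minus fertile (horizontal axis), for each of the 16 tested probes (vertical axis). Points are coefficients of the limma fit over 5 subfertile and 6 fertile cows, bars are standard errors and the dashed line is the median of all tested probes, 0.07. The 4 ATP1B3 points lie between -1.07 and -0.59, and the 4.15 of FXYD2 A_73_112171 rests on fertile readings mostly at the background.

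Some markers of epithelium and of ciliated cells were higher in subfertile cows, beside 14.6% of genes higher and 7.71% lower with 1 probe a gene. Of 17 tested epithelial markers 10 were higher and 0 lower, with KRT8 and SPINT2 the brightest, and their summed level was 189 to 239 times the 75th-percentile signal in subfertile cows and 109 to 197 times in fertile cows. Of 9 tested ciliated cell markers 3 were higher and 0 lower, with CAPS and CCDC40 the brightest. Their summed level, 6.74 to 27.0 in subfertile cows and 4.34 to 9.75 in fertile cows, was mostly that of CAPS, itself called higher. Mean log2 levels were 3.51 for CAPS and -0.40 for CCDC40 in subfertile cows, and 2.19 and -0.90 in fertile cows. Of 12 stromal markers 2 were higher and 2 lower, and of 9 smooth muscle markers 2 were higher and 0 lower. With slide as a random block 2 epithelial markers and 1 ciliated marker remained called, and with one for scan day 1 epithelial marker, CLDN3, and 0 ciliated markers. The smooth muscle sum of subfertile cow 1, 428, stood apart from 92.1 to 134 in the other subfertile cows and 61.6 to 188 in the fertile cows. The uterine markers were present, led by MSX1 and HOXA10, and of 6 tested 0 were called in either direction.

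FXYD2 and FXYD3 were highest in the same subfertile cow and lowest in the same one. Across the 11 arrays their deviations from group means had a Pearson correlation of 0.71, given as a description over arrays that differ in brightness. The mean of the ciliated markers, centred on all arrays, was 0.18, 1.49, 0.42, -0.60 and 1.30 in subfertile cows 1 to 5, against -0.91, 0.10, -0.47, -0.24, -0.31 and -0.96 in fertile cows 1 to 6. Subfertile cow 2 was the highest and subfertile cow 4 the lowest of its group in this mean and in both genes. Among fertile cows, cow 2 was the highest and cow 6 the lowest in this mean and at FXYD2 probe A_73_P033221. FXYD3 probe A_73_113942 did not follow the mean there. It was highest in fertile cow 6, at -1.11, where the mean was lowest, and lowest in fertile cow 5, at -2.09. The part of ciliated or other epithelial cells in the FXYD2 and FXYD3 results was not tested.

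**Figure D3:**
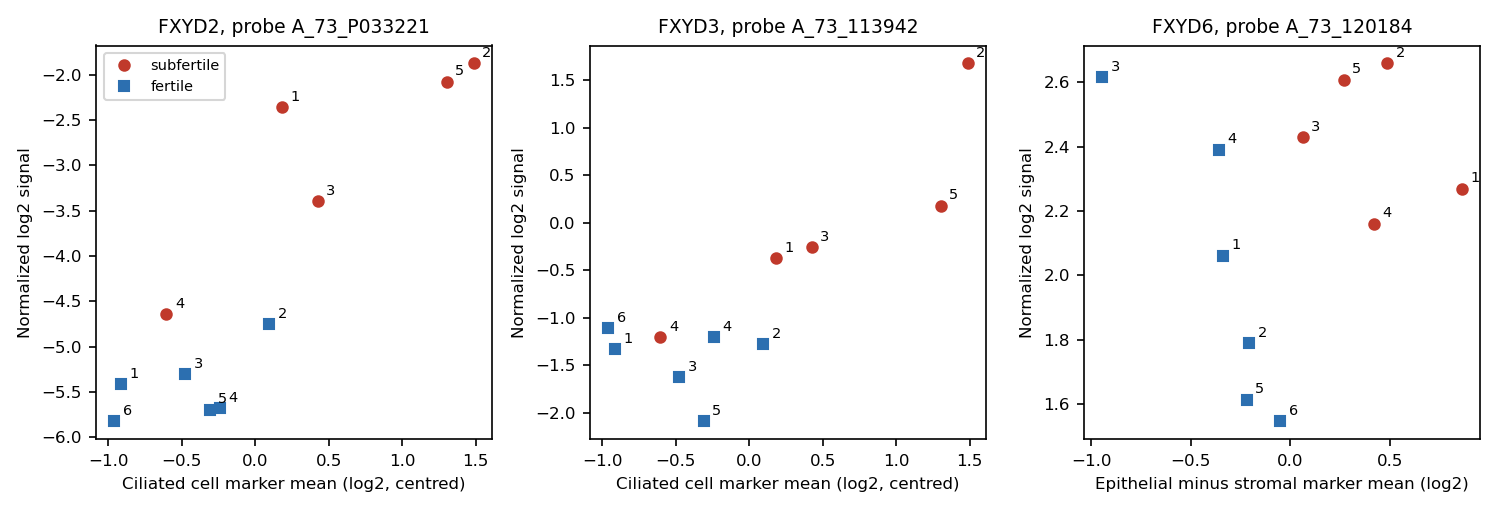
Normalized log2 signal of FXYD2 and FXYD3 against the mean of ciliated cell markers, and of FXYD6 against the epithelial minus stromal marker mean (horizontal axes, log2), with 1 point for each cow, numbered. Circles are subfertile and squares fertile. Subfertile cow 4 lies at the lower left of the other circles in the first 2 panels, and the squares fall from upper left to lower right in the FXYD6 panel. In the FXYD3 panel fertile cow 6 lies at the upper left of the squares.

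Within the fertile cows, each gene's brightest probe was set against the balance of epithelial and stromal markers, the mean of the first list minus the mean of the second, which does not use the difference between the groups. FXYD6 was lower where the balance was higher, with a Pearson r of -0.873 (n = 6, exact two-sided permutation p = 0.00278 over 720 orders, and 0.0194 after Benjamini-Hochberg adjustment over 7 genes). Spearman's rho was -0.943 (exact permutation p = 0.0167, adjusted 0.117), and r was -0.917 without fertile cows 3 and 6, the farthest from the median balance. After centring arrays on their median, r was -0.835 with an adjusted exact permutation p of 0.0583, and it stayed between -0.9674 and -0.8325 with a cow left out, where 5 cows allow no exact permutation p below 0.00833 and none passed the adjustment. Fertile slides held at most 2 cows, too few for a value within a slide. Fertile cows 1 and 3 shared a slide, as did 2 and 5, and the first pair had the lower balance and the higher FXYD6. The part of slide in this relation was not tested.

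The other 6 genes did not pass. Pearson r was 0.473 for ATP1B1, 0.379 for ATP1B2, -0.136 for ATP1B3, -0.615 for FXYD1, -0.212 for FXYD2 and 0.261 for FXYD3. For FXYD1 Spearman's rho was -0.886 (exact permutation p = 0.0333, adjusted 0.117). The 5 subfertile cows were too few for such a correlation, and their balance of 0.06 to 0.86 did not overlap the -0.94 to -0.05 of the fertile cows.

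Other genes of sodium transport were read from 3 lists, with each gene represented by its brightest tested probe, beside a background of 14.6% higher and 7.71% lower among 12510 genes. Of the other pump subunits and FXYD proteins, 4 of 10 were tested, and 0 were higher and 0 lower by limma at an adjusted p of 0.05; 0 of the 4 had an unadjusted p below 0.05. FXYD7 had a difference of 0.34 ± 0.38 and the gastric pump subunit ATP4A one of 0.06 ± 0.36. Both probes were dim. That of FXYD7 was well above background on 2 of 5 subfertile and 4 of 6 fertile arrays, that of ATP4A on 1 and 4. With normexp background correction the differences were 1.39 and 1.34, both past the threshold, so these values do not show that the groups were alike. FXYD4 had no probe under its name, and ATP1A4, ATP1B4, ATP12A and ATP4B were too dim to be tested.

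Among genes of sodium entry and exchange, 12 of 15 were tested, 1 was higher and 3 were lower. SLC9A3R2, a scaffold that holds the sodium-proton exchanger at the apical membrane, averaged 3.27 ± 0.28 in subfertile cows and 2.56 ± 0.18 in fertile cows and rose by 0.72 ± 0.14 (limma, adjusted p = 0.00614), with its other 2 probes past the threshold too. SCNN1A, the alpha subunit of the epithelial sodium channel through which sodium enters from the lumen, averaged 0.24 ± 0.78 in subfertile cows and 1.62 ± 0.56 in fertile cows and fell by 1.38 ± 0.36 (limma, adjusted p = 0.0202). Its second probe had a difference of -0.04 ± 0.31. The sodium-calcium exchanger SLC8A1 had a difference of -1.26 ± 0.26 and the sodium-coupled vitamin transporter SLC5A6 one of -1.16 ± 0.24 (limma, adjusted p = 0.00697 and 0.00676). For both genes the remaining probes were not past the threshold, and those of SLC8A1 gave 0.35 ± 0.23 and -0.20 ± 0.26.

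Of 18 regulators 13 were tested, 2 were higher and 0 lower. SGK1, a kinase induced by corticosteroids that raises sodium channel and pump activity, read 0.63, 2.15, 1.88, 2.40 and 1.61 in subfertile cows, against 0.71, 0.70, 0.05, 0.67, 0.11 and 0.64 in fertile cows. Subfertile cow 1 lay within the fertile range and the other 4 above it. SGK1 rose by 1.25 ± 0.28 (limma, adjusted p = 0.0101), and its second tested probe by 1.23 ± 0.25. SIK1, a kinase of the salt-inducible family, rose by 0.68 ± 0.21 (limma, adjusted p = 0.0353), a call that was lost under 12 of 23 other settings. The channel-activating protease PRSS8 had a difference of 0.52 ± 0.19 and the cortisol-inactivating enzyme HSD11B2 one of -0.76 ± 0.28, neither past the threshold (limma, adjusted p = 0.0653 and 0.0675). Entering scan day as a random block left 0 of the 6 calls in these lists, and entering slide lost SCNN1A and SIK1 (limma, adjusted p = 0.0924 and 0.0630).

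**Figure D4:**
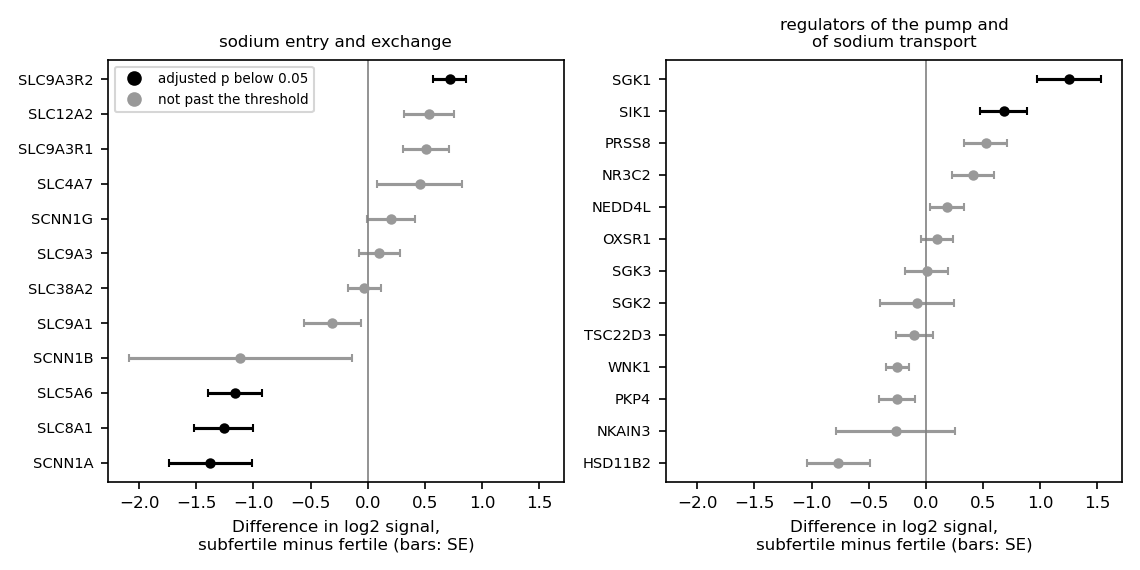
Difference in log2 signal, subfertile minus fertile (horizontal axis), of each tested gene of the lists of sodium entry and exchange and of regulators (vertical axis). Points are coefficients of the limma fit and bars standard errors; black points are past an adjusted p of 0.05 and grey points are not. SGK1 lies at 1.25 and SCNN1A at -1.38.

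For each gene the tested genes whose cow-to-cow pattern was most like it were found by the Pearson correlation of their brightest probes, as deviations from group means over 11 arrays, among 12382 genes. These are the highest of many values over few arrays and are given as a description. For FXYD2 they were TRAF3IP1 at 0.935, CD79B at 0.933 and ENKUR at 0.926, and for FXYD3 they were ALMS1 at 0.909, MOK at 0.905 and STYXL1 at 0.904. For FXYD6 they were ANKRD35 at 0.963, B9D2 at 0.932 and GRIN2D at 0.919. For FXYD1 they were HTRA1 at 0.960, MFAP2 at 0.946 and ZNF175 at 0.934. ATP1B3 was nearest to ZNF470 at 0.946, LYPLAL1 at 0.856 and ORC3 at 0.846, and ATP1B1 to PITPNB at 0.864, OVOL2 at 0.860 and CTSW at 0.851. The dim ATP1B2 probe was nearest to PSKH1 at 0.965, CELSR1 at 0.928 and DNAJA3 at 0.924. The brightest CD79B probe, like that of ATP1B2, was not well above background on every array.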

How the data were processed

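Endometrial RNA of 5 subfertile and 6 fertile cows was measured on Agilent 1-colour arrays, 1 array a cow. The deposited scanner files hold spot intensities; the submitters' processing notes name Agilent Feature Extraction, version 10.5.1.1, as the authors' software. A further deposited table holds the authors' log2 values, scaled to each array's 75th percentile and centred on each probe. For fertile cow 1 it differs from the scanner file: 17.0% of its values lay within 0.01, against 100% on 9 other arrays, each set against fertile cow 2. The file of fertile cow 6 has rounded signals and misplaced gene names, so names were joined by probe.

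Control and outlier spots were left out, log2 processed signals were averaged per probe and each array's 75th percentile was subtracted. Probes well above background on at least 5 of 11 arrays were tested with limma 3.58.1 (R 4.3.3), Benjamini-Hochberg adjusted at 0.05. The limma step was run on simulated independent normal values. That simulation held no filtering, scaling, or differences of brightness, slide or scan day. Precision is limited by the number of arrays. Gene names come from the array files and a RefSeq gene table of assembly ARS-UCD2.0, which was used for names only; positions are those of the array's annotation.

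The members and lists were chosen with earlier results of these data known, so differences of members carry no p-value. Named genes were set by a rule: all members with every probe; in each list of other genes the 4 with the smallest p, and SGK1 whatever its value; the 3 genes nearest in pattern to each member; the 2 brightest markers of a list. Where a gene had several tested probes, the one with the highest mean stood for it. Some genes that the rule names are not reported here, though counts include them. Correlations used Python 3.11.15 and scipy 1.17.1. Alternatives were normexp with an offset of 50, other scalings and filters, the authors' table, blocks for slide, day and replicate number, other variance models, a stricter threshold and each cow left out.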

Additional observations from a re-analysis of the deposited data

Results flagged for a closer look

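Among 32 groups of probe values screened for a cow far from the rest of its group, 1 stood out. Chance flags about 1 in 20 of the groups screened, so 1 flag among 32 is no more than chance gives. At the dim FXYD3 probe A_73_P346901 fertile cow 6 read -5.06, and the next fertile cow read -6.26. That gap was 0.697 of the group's range, above the critical value of 0.625 for 6 samples. The brightest FXYD3 probe read -1.11 in the same cow, the highest of the fertile group but close to the others.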

How the results depend on the processing

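The differences of the 16 member probes were recomputed 364 times under 23 settings, and 360 of the values moved by less than 1 SD between cows. The signs of ATP1B3, FXYD2, FXYD3 and FXYD6 held in all of them; those of ATP1B1, ATP1B2 and FXYD1 did not. The 4 values that moved further were ATP1B1 A_73_P043016 at -0.16 with the brightness trend removed and, under normexp, ATP1B2 at 0.93, FXYD2 A_73_112171 at 2.47 and FXYD3 A_73_P346901 at 1.38. The number of member probes called was 3 with scan day as a block, each of them ATP1B3, and 6 to 9 with a cow left out. Over all probes 7074 were called, against 17082 under normexp, which shifted the median difference to 0.33, 12198 without a filter on dim probes, 3676 with a random block for slide, 978 with one for scan day, and 2624 at an adjusted p below 0.01. Leaving out a cow gave 4525 to 7316, the lowest without subfertile cow 2. The share of calls that were higher was 66.8%, but 50.8% after quantile normalization, 47.6% after median centring, 52.1% with the brightness trend removed, 87.3% under normexp and 79.2% without the filter. With scan day as a block it was 80.6%. In the lists of other genes 6 were called, against 18 under normexp and 0 with scan day as a block, and 5 to 9 with a cow left out. The SIK1 call was lost without fertile cow 1, 3 or 4 and without subfertile cow 1, 2 or 4, with differences of 0.59 to 0.72 and limma adjusted p of 0.0511 to 0.0774. The correlation of FXYD6 with the marker balance was -0.835 after median centring, -0.943 by rank and -0.826 with the epithelial mean alone, with adjusted exact permutation p of 0.0583, 0.117 and 0.136. It was -0.9674 to -0.8325 with a cow left out, with adjusted exact permutation p of 0.0583 to 0.194. Apart from the settings built on fewer samples or probes, the cause of these changes was not tested.

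Replicate numbers name different cows, and the deviations of same-numbered cows correlated at -0.21, 0.17, 0.22, -0.04 and -0.17, so the numbers do not pair them. With the replicate block 4761 probes were called over all, 6 of the member probes and 8 of the other genes. Dim probes are limited by background: those of ATP1B2, FXYD2 A_73_112171, FXYD3 A_73_P346901 and FXYD6 A_73_P434456 were not well above it on every array.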

Other observations

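Several sodium transport genes whose brightest probe was not called had another probe that was, and these genes were chosen after their values were seen. SLC9A3R1, a scaffold of the sodium-proton exchanger, had a difference of 0.51 ± 0.20 at its brightest probe (limma, adjusted p = 0.0865) and 1.56 ± 0.19 at the other (adjusted p = 0.000611). WNK1, a kinase that regulates sodium and chloride transport, gave -0.25 ± 0.10 at its brightest probe, while 2 of its other probes were higher in subfertile cows, by 0.51 ± 0.16 and 0.55 ± 0.14 (limma, adjusted p = 0.0401 and 0.0188). HSD11B2 had differences of -0.76 ± 0.28 and -1.14 ± 0.29 at its 2 probes (limma, adjusted p = 0.0675 and 0.0188). TSC22D3, a corticosteroid-induced regulator, gave -0.10 ± 0.16 at its brightest probe and -0.61 ± 0.13 at 1 of the others (limma, adjusted p = 0.00751). The sodium-potassium-chloride cotransporter SLC12A2 had differences of opposite sign, 0.54 ± 0.22 and -0.66 ± 0.28, neither past the threshold.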
